A study of Mus musculus with 9 samples.

Results

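The ERK feedback regulators examined here are 10 mouse genes whose transcripts are widely read as reporters of ERK activity: Spry1, Spry2 and Spry4 of the Sprouty family, Spred1 and Spred2 of the Spred family, the phosphatase genes Dusp4, Dusp5 and Dusp6, and the transcription factor genes Etv4 and Etv5. They were found by matching symbols to Ensembl identifiers, and all 10 were present among the 47729 identifiers of the deposited count table. All 10 also passed the filter on low counts in each of the 3 comparisons. Bulk RNA sequencing of whole retinas gave 9 libraries, each from 1 frozen retina, in 3 groups of 3 on a C57Bl6/J background. Yap CKO mice had floxed alleles of Yap together with Rax-CreERT2, a tamoxifen-dependent Cre described as active in Müller cells, the radial glia that span the retina. No deletion in other retinal cells was intended. Control mice had the floxed alleles and no Cre, although their genotype label also reads Yap CKO. Both groups received 4-hydroxytamoxifen at postnatal day 10 and were examined at day 60, and the names of their count columns carry the letters MNU. The labels do not say what these letters stand for, and the names of the C57 columns do not carry them. C57 mice were wild type, examined at day 30, and re-analysed from earlier records. 1 of the C57 columns carries a number that no C57 sample description shares, and its library is called the unnumbered C57 library below. The labels do not say whether retinas of a group came from different animals, so p-values measure the spread between these samples.

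Growth factor receptors activate ERK through Ras, Raf and MEK. Active ERK switches on genes that dampen the same cascade: Sprouty proteins act at the level of receptors and Ras, Spred proteins recruit neurofibromin, the product of Nf1, to inactivate Ras, and dual-specificity phosphatases remove the activating phosphates from ERK itself. ETV4 and ETV5 are ETS-family transcription factors that carry FGF and ERK signals to target genes. In the retina, Müller cells respond to injury with ERK activation, and FGF and EGF receptors are among its known inputs.

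Total counts were 34739679 to 37629264 in the 6 libraries from day 60 and 13760765 to 16808499 in the C57 libraries. Yap1, the targeted gene on chromosome 9 (7931999 to 8004596, minus strand, GRCm38), stood at 15.3, 21.5 and 24.3 CPM (counts scaled to a common library size) in Yap CKO 1, 2 and 3, against 67.4, 61.0 and 57.6 CPM in control 1, 2 and 3 (log2 fold change -1.60, SE 0.17, edgeR adjusted p = 0.0327, lower in 3 of 3 libraries). Without control 1 or control 2, 0 genes passed in edgeR in that comparison, so that Yap1 did not pass either (2035 and 2226 genes had an unadjusted p under 0.05). The C57 libraries had 23.4, 25.1 and 30.4 CPM of Yap1. Summed CPM of 10 rod markers was uneven at day 60, at 1043 to 22695 in Yap CKO and 4116 to 21542 in control libraries, against 100381 to 118887 in C57 libraries. Summed CPM of 10 lens markers reached 1218 in Yap CKO 3 and was at most 25.8 in each of the other libraries. Xist was high (173.7 and 208 CPM) in Yap CKO 1 and 2, with Y-linked transcripts near 0 there, whereas Yap CKO 3 and all 3 controls had Y-linked sums of 118 to 135 CPM and almost no Xist. Sex thus differs between the groups, and its part in the results below was not tested. Because the samples are bulk tissue, fewer cells of a type and less RNA per cell cannot be told apart.

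Relative to C57 retinas, most of the feedback regulators stood higher in control retinas, and none of them differed between Yap CKO and control retinas past the threshold. In control against C57 retinas, Spry2, Spry4, Spred1, Spred2, Dusp5 and Dusp6 rose, Dusp4 and Etv5 fell, and Spry1 and Etv4 did not pass (edgeR adjusted p under 0.05 over 15820 genes). That is 8 of 10 genes, where 45.5% of all genes tested passed (23.1% higher and 22.4% lower). Every control library lay above every C57 library for 7 of the 10 and below for 2, where 30.3% and 28.2% of all genes did so. In Yap CKO against C57 retinas, Spry1, Spry2, Spry4, Dusp5 and Dusp6 rose and Dusp4 and Etv5 fell, 7 of 10, where 40.5% of all genes passed (20.3% higher and 20.2% lower). The Yap CKO libraries lay above all C57 libraries for 5 of the 10 and below for 2, where 28.1% and 26.8% of all genes did so. Between Yap CKO and control retinas 0 of 10 passed, where 0.200% of all genes did (0.0181% higher and 0.181% lower). Without regard to the threshold, 7 of the 10 had negative log2 fold changes there, with a median of -0.25 against 0.01 for all 16539 genes.

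**Figure D1:**
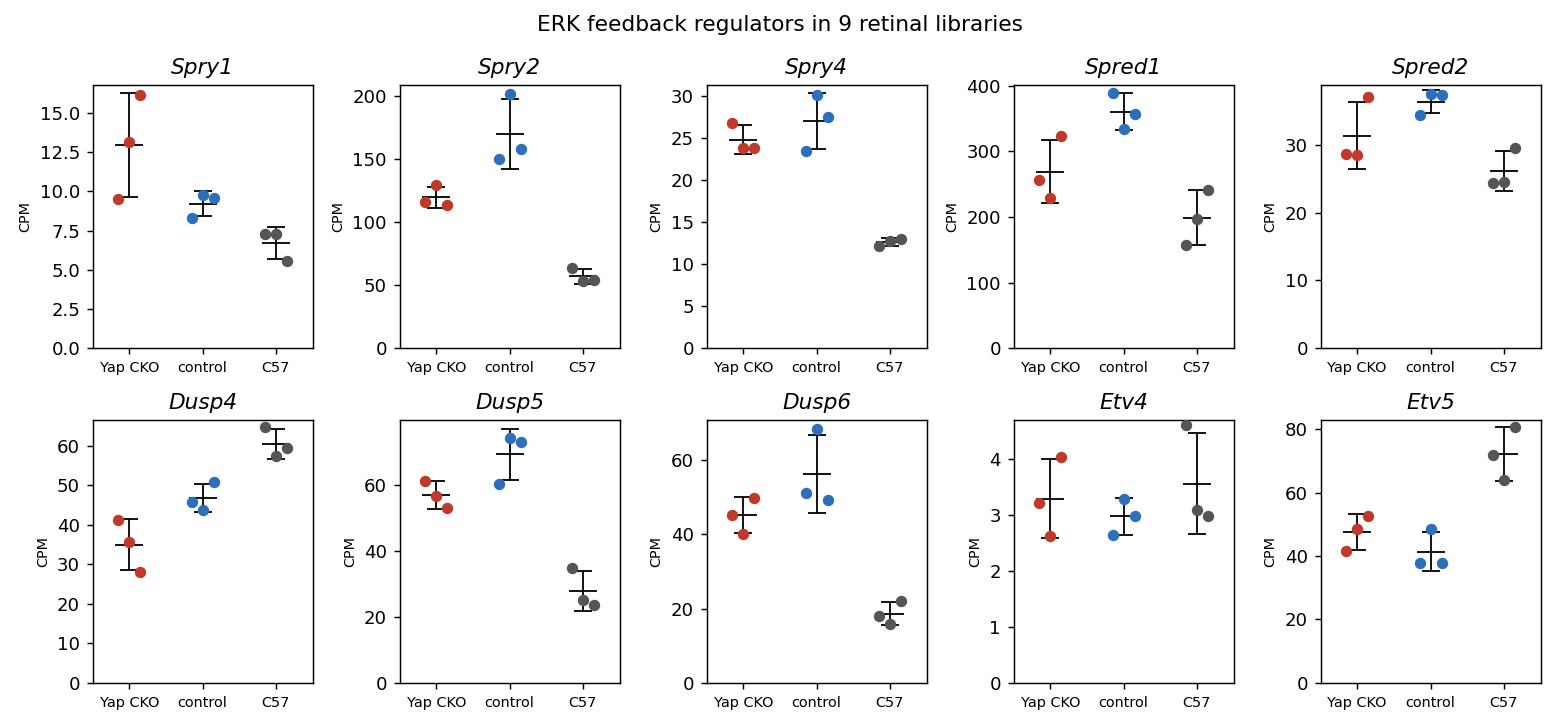
Level of each of the 10 genes in CPM (linear axis from 0) in the 3 Yap CKO, 3 control and 3 C57 libraries; points are libraries, and the bars give the mean and SD. Spry2, Spred1 and Dusp4 are the genes whose Yap CKO points all lie under the control points, and Dusp4 and Etv5 are highest in every C57 library.

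At an unadjusted p under 0.05, 1 of the 10 stood higher (Spry1) and 4 stood lower (Spry2, Spred1, Dusp4 and Dusp5) in Yap CKO than in control retinas, where 8.59% and 9.25% of all genes did. For 3 of the 10 genes, Spry2, Spred1 and Dusp4, every Yap CKO library lay below every control library, where 12.2% of all genes did so in that direction. For 0 of the 10 did every Yap CKO library lie above, where 12.8% of all genes did. DESeq2 passed Spry2 and Spred1 (adjusted p = 0.0056 and 0.0407), where 3.38% of all genes were lower by that tool, and limma-voom passed 0 of the 10 (4 of them had an unadjusted p under 0.05). With no count filter Spry2 passed in edgeR (adjusted p = 0.0374), where 0.952% of all genes were lower. None of the 10 genes was among the 305 of the authors' deposited table, whose smallest absolute log2 fold change for this comparison was 0.587. All 10 genes lay nearer to 0 than that here (Spry2, the furthest, at -0.51), so their absence is no separate test.

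**Figure D2:**
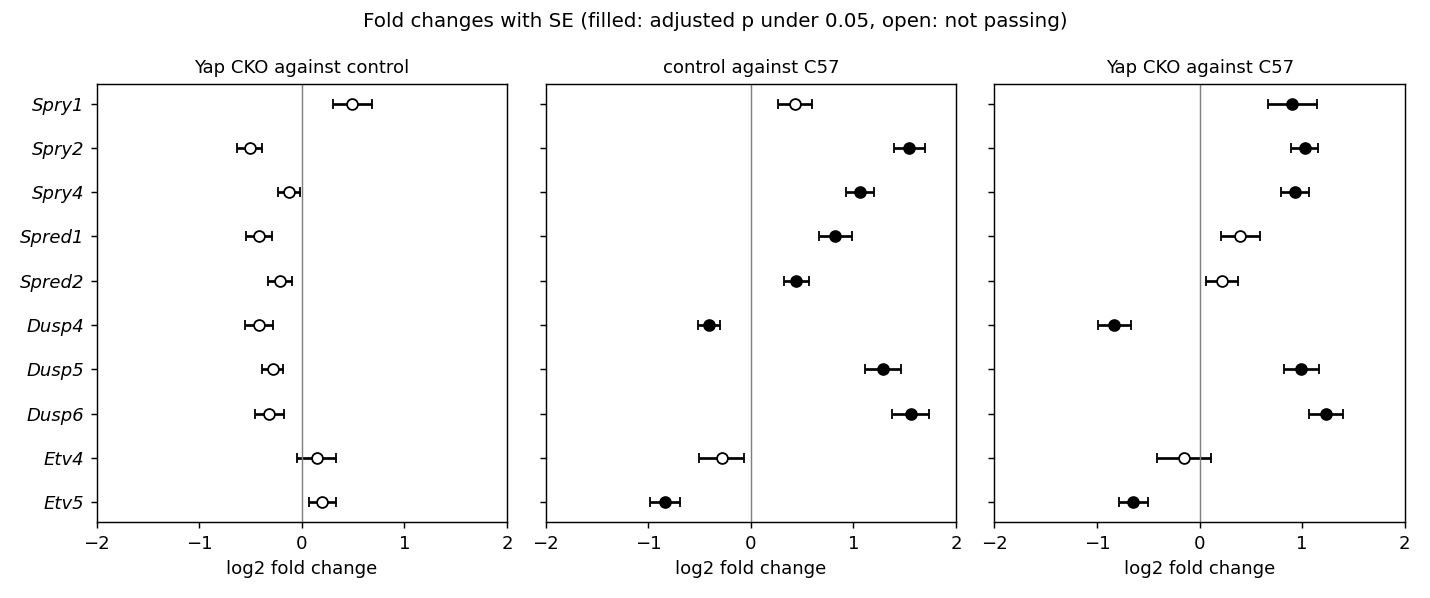
Log2 fold change (horizontal axis) with its SE for each gene in Yap CKO against control, control against C57 and Yap CKO against C57, from edgeR; filled points have an adjusted p under 0.05. No point is filled in the first panel, 8 are in the second and 7 in the third; the comparisons share libraries.

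Among the Sprouty genes, Spry2 is the most abundant and Spry1 the one with a positive log2 fold change in Yap CKO against control retinas. Spry2 encodes an inhibitor of receptor tyrosine kinase signalling and lies on chromosome 14 (ENSMUSG00000022114, 105891947 to 105896819, minus strand). It had 116, 129 and 113 CPM in the Yap CKO libraries, 150.3, 201 and 158 CPM in the control libraries and 63.6, 53.3 and 53.9 CPM in the C57 libraries. The 3 groups did not overlap: C57 was lowest, control highest and Yap CKO between them. Spry2 averaged 119 ± 8.39 CPM in Yap CKO and 169.7 ± 27.4 CPM in control retinas (SD, n = 3 each), a 1.42-fold lower level in Yap CKO (log2 -0.51, SE 0.12, edgeR adjusted p = 0.112), lower in 3 of 3 libraries. Against 56.9 ± 5.80 CPM in C57 retinas, it rose 2.92-fold in control (log2 1.55, SE 0.15, adjusted p = 0.000193) and 2.04-fold in Yap CKO retinas (log2 1.03, SE 0.13, adjusted p = 0.00067).

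Spry1, another Sprouty inhibitor, lies on chromosome 3 (ENSMUSG00000037211, 37639947 to 37644598, plus strand). It was low throughout, at 9.53, 13.2 and 16.1 CPM in Yap CKO, 8.31, 9.76 and 9.57 CPM in control and 7.29, 7.28 and 5.55 CPM in C57 libraries. Yap CKO and control overlapped, since Yap CKO 1 lay within the control range, and both lay above C57. The log2 fold change was 0.49 in Yap CKO against control (SE 0.19, adjusted p = 0.239) and 0.43 in control against C57 (SE 0.16, adjusted p = 0.0664). Against C57, Spry1 rose 1.87-fold in Yap CKO retinas (log2 0.91, SE 0.23, adjusted p = 0.0159), and without Yap CKO 2 that call was lost (log2 0.90, adjusted p = 0.0556). In Yap CKO against control its value was 0.30 without Yap CKO 3. Without C57 1, Spry1 passed in control against C57 (log2 0.49, adjusted p = 0.0420). The predicted gene Gm42922 overlaps Spry1 on the opposite strand and had 0 to 10 counts per library.

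Spry1 and Spry2 had log2 fold changes of opposite sign in Yap CKO against control retinas, and neither passed. Their upstream sequences are shown for the 250 bases before each RefSeq start (GRCm38.p6). They were searched on both strands for GGAATG, a word bound by TEAD factors, the DNA-binding partners of YAP, for the ETS word CCGGAA and for the AP-1 word TGANTCA. Capitals mark the GGAATG match, which starts 208 bases before the Spry1 start.
Spry1 (chr3:37639697-37639946, plus strand): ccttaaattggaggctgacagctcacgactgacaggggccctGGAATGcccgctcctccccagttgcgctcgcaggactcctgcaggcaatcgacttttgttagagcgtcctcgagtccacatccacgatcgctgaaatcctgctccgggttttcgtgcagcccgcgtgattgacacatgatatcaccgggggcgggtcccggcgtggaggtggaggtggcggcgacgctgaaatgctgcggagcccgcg
Spry2 (chr14:105896820-105897069, minus strand): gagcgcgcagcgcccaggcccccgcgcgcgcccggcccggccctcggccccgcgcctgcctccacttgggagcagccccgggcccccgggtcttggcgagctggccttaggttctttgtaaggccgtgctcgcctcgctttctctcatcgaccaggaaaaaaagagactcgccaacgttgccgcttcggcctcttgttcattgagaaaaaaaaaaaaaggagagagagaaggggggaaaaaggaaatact
Sequences were found for 7 of the 10 genes, with 8 starts in all, and the Spry1 match was the only match of these 3 words among them. Over all 32851 promoters in the table, 12.6% held GGAATG, 12.03% CCGGAA and 6.75% TGANTCA in the same window. A match is a description of letters and not a bound site.

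Spry4 encodes a further Sprouty inhibitor and lies on chromosome 18 (ENSMUSG00000024427, 38586247 to 38601415, minus strand). It had 26.8, 23.8 and 23.8 CPM in Yap CKO, 23.5, 30.1 and 27.5 CPM in control and 12.2, 12.8 and 13.0 CPM in C57 libraries. Yap CKO lay within the control range, and every day 60 library lay above every C57 library. It rose 2.09-fold in control (log2 1.07, SE 0.14, adjusted p = 0.00064) and 1.903-fold in Yap CKO against C57 retinas (log2 0.93, SE 0.14, adjusted p = 0.00127). Between Yap CKO and control its log2 fold change was -0.13 (SE 0.11, adjusted p = 0.600), -0.037 without control 2 and -0.23 without control 1.

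Both Spred genes rose in control against C57 retinas, and neither passed in Yap CKO against control retinas. Spred1 encodes a membrane-bound inhibitor of Ras activation and lies on chromosome 2 (ENSMUSG00000027351, 117121374 to 117182279, plus strand). It had 256, 228 and 323 CPM in Yap CKO, 389.8, 334 and 357 CPM in control and 158, 197 and 241 CPM in C57 libraries. The Yap CKO and control libraries did not overlap, with Yap CKO 3 close to control 2, whereas Yap CKO 2 lay within the C57 range. Spred1 averaged 269 ± 48.5 CPM in Yap CKO and 360.3 ± 28.2 CPM in control retinas (log2 -0.42, SE 0.13, adjusted p = 0.158). It rose in control against C57 retinas (199 ± 41.9 CPM in C57, log2 0.83, SE 0.16, adjusted p = 0.00471). For Yap CKO against C57 the log2 fold change was 0.39 (SE 0.19, adjusted p = 0.129), and without the unnumbered C57 library it passed (log2 0.55, adjusted p = 0.0432).

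Spred2, the paralog of Spred1, lies on chromosome 11 (ENSMUSG00000045671, 19924375 to 20024026, plus strand). It had 28.6, 28.5 and 37.1 CPM in Yap CKO, 34.5, 37.5 and 37.4 CPM in control and 24.4, 24.5 and 29.6 CPM in C57 libraries. Yap CKO 1 and 2 lay within the C57 range, whereas Yap CKO 3 lay within the control range. Spred2 rose in control against C57 retinas (36.4 ± 1.70 CPM in control and 26.2 ± 2.99 CPM in C57, log2 0.44, SE 0.12, adjusted p = 0.0188), a call lost without C57 2 (adjusted p = 0.0822), control 2 (0.0645) or control 3 (0.0810). It did not pass in Yap CKO against control (log2 -0.21, SE 0.11, adjusted p = 0.372) or Yap CKO against C57 (log2 0.22, SE 0.16, adjusted p = 0.297).

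Leaving out Yap CKO 3 changed the edgeR calls of both Spred genes, and Spred1 also passed in DESeq2 with that library included. Besides its lens transcripts, Yap CKO 3 had the lowest rod sum (1043 CPM) and the lowest pigment and ciliary epithelium sum (72.3 CPM) of all libraries. Its vascular sum was the highest (882 CPM). Which of these traits bears on the calls was not tested. Without Yap CKO 3, Spred1 fell (log2 -0.57, SE 0.078, adjusted p = 0.0144) and Spred2 fell (log2 -0.35, SE 0.072, adjusted p = 0.0324) in Yap CKO against control retinas. The other 8 genes did not pass. In that fit 817 genes were lower, 4.86% of those tested, and 2 libraries with Xist stood against 3 without it. Spry2 was at log2 -0.47 there (adjusted p = 0.118).

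Of the 3 phosphatase genes, Dusp5 and Dusp6 rose and Dusp4 fell in both comparisons with C57. Dusp6 encodes a cytoplasmic phosphatase specific for ERK and lies on chromosome 10 (ENSMUSG00000019960, 99263231 to 99267489, plus strand). It had 45.3, 40.2 and 49.8 CPM in Yap CKO, 51.0, 68.2 and 49.2 CPM in control and 18.02, 15.9 and 21.9 CPM in C57 libraries. The day 60 libraries all lay above the C57 libraries, and Yap CKO 3 lay within the control range. Dusp6 rose 2.95-fold in control (log2 1.56, SE 0.18, adjusted p = 0.000415) and 2.35-fold in Yap CKO against C57 retinas (log2 1.23, SE 0.16, adjusted p = 0.000718). Between Yap CKO and control it was at log2 -0.32 (SE 0.14, adjusted p = 0.303), with 45.1 ± 4.83 CPM in Yap CKO and 56.1 ± 10.5 CPM in control retinas, and at -0.15 without control 2, the control library with the highest value.

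Dusp5 encodes a nuclear ERK phosphatase and lies on chromosome 19 (ENSMUSG00000034765, 53529109 to 53542431, plus strand), where AC137853.2 overlaps it on the opposite strand; the strand setting of the counting is not given in the sources used here. It had 61.1, 56.6 and 52.8 CPM in Yap CKO, 60.3, 74.2 and 73.0 CPM in control and 34.7, 24.95 and 23.6 CPM in C57 libraries. Yap CKO and control overlapped at Yap CKO 1 and control 1, and C57 was lowest without overlap. Dusp5 rose 2.44-fold in control (log2 1.29, SE 0.17, adjusted p = 0.000787) and 1.99-fold in Yap CKO against C57 retinas (log2 0.99, SE 0.17, adjusted p = 0.00259). Its log2 value in Yap CKO against control was -0.28 (SE 0.10, adjusted p = 0.205).

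The 250 bases upstream of the RefSeq start of Dusp5 (GRCm38.p6) are shown because they hold adjoining CArG boxes, the element bound by serum response factor, which is activated downstream of ERK and of actin dynamics. This motif was added to the search after the sequences had been read. Capitals mark the 2 boxes, which start 82 and 72 bases before the start.
Dusp5 (chr19:53528895-53529144, plus strand): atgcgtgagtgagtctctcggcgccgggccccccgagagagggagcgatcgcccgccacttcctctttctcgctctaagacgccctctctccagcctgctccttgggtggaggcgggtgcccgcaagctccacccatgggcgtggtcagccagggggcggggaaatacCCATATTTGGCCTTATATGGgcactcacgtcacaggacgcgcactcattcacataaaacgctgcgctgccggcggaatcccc
Among the 8 starts of the 7 genes, that of Dusp5 was the only one with a CArG box, which 1.47% of all promoters held in the same window. Whether serum response factor was bound there was not measured.

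Dusp4 encodes a nuclear phosphatase that acts on ERK and on the stress kinase JNK, and it lies on chromosome 8 (ENSMUSG00000031530, 34807297 to 34819894, plus strand). It had 41.2, 35.6 and 28.2 CPM in Yap CKO, 45.8, 43.7 and 50.7 CPM in control and 64.8, 57.5 and 59.4 CPM in C57 libraries. The 3 groups did not overlap, with C57 highest, control between and Yap CKO lowest. Dusp4 fell 1.78-fold in Yap CKO against C57 retinas (34.99 ± 6.53 CPM in Yap CKO and 60.6 ± 3.78 CPM in C57, log2 -0.83, SE 0.16, adjusted p = 0.00448). It also fell in control against C57 retinas (46.8 ± 3.60 CPM in control, log2 -0.40, SE 0.11, adjusted p = 0.0178), a call lost without control 1 (adjusted p = 0.0754) or control 2 (0.0927). The call was also lost with library totals (edgeR adjusted p = 0.6996), no count filter (0.0517) or the replicate block (0.0507). Its log2 value in Yap CKO against control was -0.42 (SE 0.14, adjusted p = 0.180).

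Etv5 fell in both comparisons with C57, in which Spry2 and Dusp6 rose, and Etv4 passed in none. Etv5, a transcription factor of the PEA3 group, lies on chromosome 16 (ENSMUSG00000013089, 22381309 to 22439719, minus strand). It had 41.6, 48.6 and 52.6 CPM in Yap CKO, 38.0, 48.6 and 37.9 CPM in control and 72.1, 63.9 and 80.8 CPM in C57 libraries. Every day 60 library lay below every C57 library, and the Yap CKO and control libraries overlapped. Etv5 fell 1.78-fold in control (log2 -0.83, SE 0.15, adjusted p = 0.00283) and 1.56-fold in Yap CKO against C57 retinas (log2 -0.65, SE 0.14, adjusted p = 0.00858). Between Yap CKO and control its log2 fold change was 0.20 (SE 0.13, adjusted p = 0.473), 0.33 without control 2, 0.13 without control 1 and 0.12 without Yap CKO 3.

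Etv4, of the same group, lies on chromosome 11 (ENSMUSG00000017724, 101769742 to 101785371, minus strand) and was the least abundant, with 99 to 160 counts in the day 60 libraries and 43 to 55 in the C57 libraries. It had 3.21, 2.63 and 4.04 CPM in Yap CKO, 2.64, 3.29 and 2.995 CPM in control and 4.61, 3.10 and 2.98 CPM in C57 libraries, and all 3 groups overlapped. The log2 fold changes were 0.14 in Yap CKO against control (SE 0.19, adjusted p = 0.759), -0.28 in control against C57 (SE 0.22, adjusted p = 0.325) and -0.15 in Yap CKO against C57 (SE 0.26, adjusted p = 0.667).

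Scaling bears on the comparisons with C57. With library totals in place of TMM, the median of all genes was 0.38 on the log2 scale in control against C57, compared with 0.03 under TMM, and 6864 genes were called higher and 1937 lower, where TMM gave 3655 and 3547. In that fit the directions of 9 of the 10 genes held, Etv4 flipped to 0.069, Spry1 passed (log2 0.78, adjusted p = 0.00677) and Dusp4 did not (log2 -0.06, adjusted p = 0.6996). For Yap CKO against C57 the median of all genes was 0.38 likewise, with 6367 genes called higher and 1594 lower, where TMM gave 3217 and 3202. There Spred1 and Spred2 passed (log2 0.76 and 0.58), Etv5 did not (log2 -0.28, adjusted p = 0.141) and Etv4 flipped to 0.21.

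The ratio of one gene's counts to another's within a library does not depend on the scaling, and 4 such pairs were compared, chosen after the values had been seen. The log2 ratio of Spry1 to Spry2 counts was -3.60, -3.29 and -2.81 in Yap CKO, -4.18, -4.37 and -4.04 in control and -3.13, -2.87 and -3.28 in C57 libraries. It was thus higher in Yap CKO than in control libraries by 0.96, without overlap, and Yap CKO and C57 overlapped. For Etv5 to Spry2 the log2 ratio was -1.48, -1.41 and -1.11 in Yap CKO, -1.99, -2.05 and -2.06 in control and 0.18, 0.26 and 0.59 in C57 libraries. The difference between Yap CKO and control was 0.70 and that between control and C57 was -2.37, and no group overlapped another. For Etv5 to Dusp6 these differences were 0.51 and -2.39, and for Dusp4 to Dusp6 they were -0.13 and -1.96. For Yap CKO against control and control against C57, the exact 2-sided permutation p was 0.1 for each pair except Dusp4 to Dusp6 in Yap CKO against control, where it was 0.6. With 3 libraries against 3, 0.1 is the smallest value this test can give, and its adjusted value over the 12 comparisons (4 pairs in 3 comparisons) was 0.12.

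Levels were compared between genes as CPM per kilobase of exon (GENCODE M21). In control retinas the order from high to low was Spry2, Spred1, Dusp5, Dusp6, Dusp4, Etv5, Spred2, Spry4, Spry1 and Etv4, with 81.3 ± 13.1 CPM per kilobase for Spry2 and 0.959 ± 0.105 for Etv4. Yap CKO retinas had the same order, with 57.2 ± 4.02 for Spry2 and 1.06 ± 0.228 for Etv4. In C57 retinas Spred1 (29.3 ± 6.18), Spry2 (27.3 ± 2.78), Dusp4 (22.1 ± 1.38) and Etv5 (17.6 ± 2.06) came first, ahead of Dusp5 (11.2 ± 2.45) and Dusp6 (5.94 ± 0.982). Neighbours in the order whose libraries overlapped were Dusp6 and Dusp4 in both day 60 groups, Dusp4 and Etv5 as well as Spry4 and Spry1 in Yap CKO, and Spred1 and Spry2 as well as Dusp6 and Spred2 in C57 retinas.

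Across the 6 day 60 libraries, Spry2, Spry4, Dusp5 and Dusp6 varied in the same direction, with Pearson r of log2(CPM + 1) from 0.62 to 0.87 for each pair (n = 6 libraries, a description that includes the group difference). These 4 did not stand apart: r was 0.82 for Dusp4 with Dusp5, 0.73 for Spred2 with Dusp6 and 0.65 for Dusp4 with Spry2. It was 0.27 for Dusp4 with Dusp6. Spred1 went with Spred2 (r = 0.85). Spry1 went with Etv5 (r = 0.83) and against Dusp4 (r = -0.92). Outside the 10, the genes with the highest r over these 6 libraries among 11696 genes of at least 5 CPM were Orai3 for Spry1 (r = 0.997), Parm1 for Spry2 (r = 0.996), Ppat for Spry4 (r = 0.976), Tm9sf3 for Spred1 (r = 0.999) and Tmeff1 for Spred2 (r = 0.998). They were Tial1 for Dusp4 (r = 0.997), Msantd4 for Dusp5 (r = 0.991), Magohb for Dusp6 (r = 0.970), H1f0 for Etv4 (r = 0.990) and Emilin1 for Etv5 (r = 0.989). With so many genes and 6 libraries sharing depth and composition, such values describe these libraries only.

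Other genes of the ERK pathway were read from 3 further lists, and genes beyond the 4 with the smallest p in a list and comparison were named after their values had been seen. None of 20 genes of the core cascade passed in Yap CKO against control retinas (0 of 20, 14 negative, median -0.15, 2 higher and 7 lower at an unadjusted p under 0.05, where 8.59% and 9.25% of all genes were). The core genes with the smallest p were Rasa1, a Ras GTPase-activating protein (48.9 ± 0.407 CPM in Yap CKO and 59.5 ± 2.79 CPM in control, log2 -0.28, adjusted p = 0.0908), Nras (log2 -0.37, adjusted p = 0.106), Hras (log2 0.30, adjusted p = 0.118) and Braf (log2 -0.26, adjusted p = 0.127). The Ras genes Nras and Hras thus had opposite signs. Of 8 tested relatives of the 10 genes, 0 passed, where 0.200% of all genes did. Of these relatives 7 were negative, and their median was -0.22, against 0.01 for all genes. Dusp10, a phosphatase of the p38 and JNK kinases, was at log2 -0.39 (adjusted p = 0.115), Dusp16 at -0.27, Spred3 at -0.32 and Dusp7 at -0.34.

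Among 16 other transcriptional outputs of ERK, 2 fell and 14 did not pass in Yap CKO against control retinas, where 0.181% of all genes were lower. Their median was -0.36, against 0.01 for all genes. Those that fell were Fosl1, an AP-1 subunit (90.2 ± 3.55 CPM in Yap CKO and 164 ± 13.4 CPM in control, log2 -0.86, adjusted p = 0.0188), and Hbegf, an EGF receptor ligand (85.2 ± 2.64 CPM in Yap CKO and 163 ± 28.1 CPM in control, log2 -0.94, adjusted p = 0.0496). The mean of Lif, an interleukin-6 family cytokine, was 70.3 ± 18.1 CPM in Yap CKO and 170.5 ± 20.2 CPM in control retinas (adjusted p = 0.0738, log2 -1.28). Plaur, the urokinase receptor gene, averaged 10.2 ± 2.27 CPM in Yap CKO and 17.9 ± 3.23 CPM in control retinas (adjusted p = 0.115, log2 -0.81). The authors' deposited table gave log2 fold changes of -0.853 for Fosl1, -0.930 for Hbegf and -1.27 for Lif in the same comparison. Calls differed there: the authors' deposited table gave Lif an adjusted p of 5.23e-07 and Ccnd1, the cyclin D1 gene, an adjusted p of 0.00982. In edgeR here Ccnd1 was at log2 -0.85 (adjusted p = 0.182). Among immediate-early genes of the list, Myc was at log2 -0.55 (adjusted p = 0.116). Every Yap CKO library lay below every control library for Myc, where 12.2% of all genes did so. Fos was at -0.26, Egr1 at -0.14 and Ier3 at -0.08 (adjusted p of 0.663, 0.778 and 0.662). These lists were chosen with earlier results of the same libraries known, and 0 genes of the 3 lists passed without control 1, control 2, Yap CKO 1 or Yap CKO 2. In those fits only 0, 0, 3 and 1 of all genes passed. Without Yap CKO 3, 15 genes of the lists passed, 14 of them lower. There 1473 of all 16809 genes tested passed, and 4.86% of all genes were lower.

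**Figure D3:**
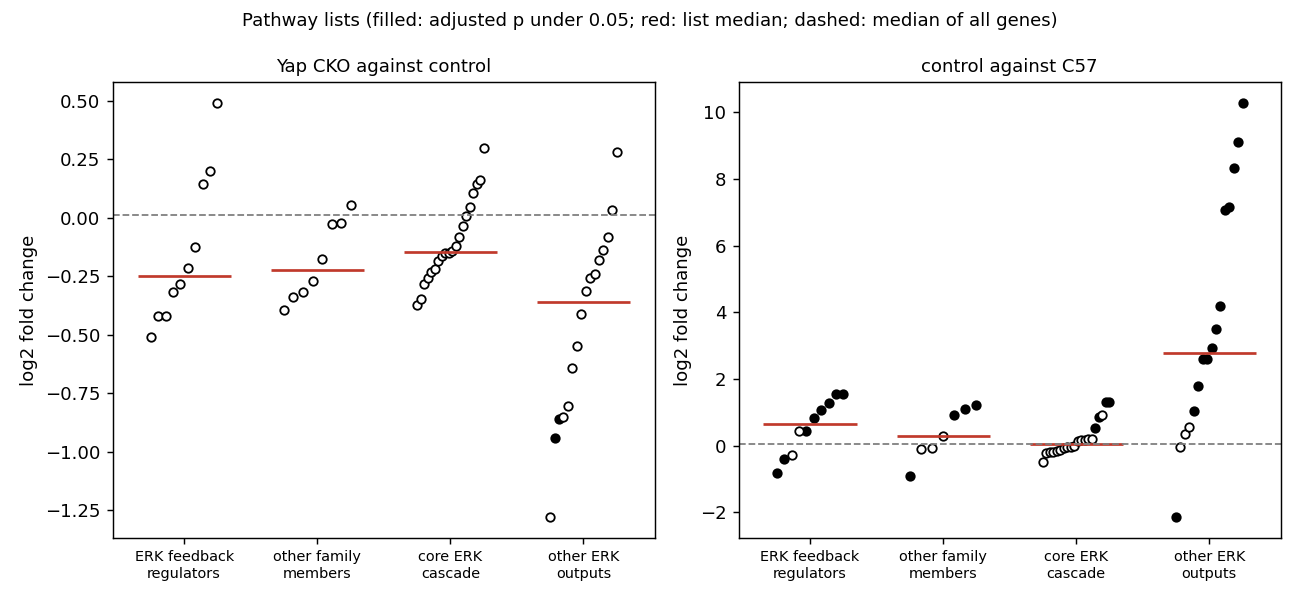
Log2 fold change (vertical axis, with its own scale in each panel) of each tested gene in 4 lists, in Yap CKO against control and in control against C57; filled points have an adjusted p under 0.05, red lines are list medians and the dashed line is the median of all genes. The list medians are -0.25, -0.22, -0.15 and -0.36 on the left, and 0.63, 0.29, 0.06 and 2.77 on the right.

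Set against C57 retinas, where 23.1% of all genes were higher and 22.4% lower in control retinas, the share of core genes that rose was near that of all genes. Of 20 core genes 4 rose and 0 fell (median 0.06): the adaptor genes Shc1 (log2 1.32, adjusted p = 0.000229) and Gab1 (0.85, 0.000555), Nras (1.31, 0.000702) and the MEK gene Map2k1 (0.53, 0.00293). Of 7 tested relatives of the 10 genes, Spred3, Dusp10 and Dusp16 rose (log2 1.09, 1.21 and 0.91) and Etv1, the remaining PEA3 member, fell (log2 -0.92, adjusted p = 0.0112). All 3 Etv genes thus had negative values, Etv4 without passing and with a positive value (0.069) when library totals replaced TMM. Of the 16 outputs, 12 rose and 1, Dusp14, fell (log2 -2.15, adjusted p = 0.00024), with a median of 2.77. Epha2, an ephrin receptor, stood at 43.1 ± 2.09 CPM in control and 2.33 ± 1.20 CPM in C57 retinas, and Phlda1 at 37.9 ± 2.65 CPM in control and 6.12 ± 1.98 CPM in C57 retinas. The 4 with the smallest p, Lif, Fosl1, Myc and Hmga2, stood at 170.5, 164, 55.3 and 79.2 CPM in control retinas and under 1 CPM in C57 retinas. Against C57, Yap CKO retinas had a like split: 12 outputs rose and 1 fell, where 20.3% of all genes were higher and 20.2% lower.

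Markers of other cell types moved with the comparisons with C57 as well. All 10 rod markers fell in control against C57 retinas (median log2 -3.18), and of 10 Müller glia markers 3 rose and 6 fell (median -0.58), where 23.1% of all genes rose and 22.4% fell. Summed CPM of the Müller glia list was 5747 to 7341 in Yap CKO, 5959 to 6822 in control and 8080 to 9058 in C57 libraries, and none of its genes was under 1 CPM throughout a group. By the mean over all 9 libraries its most abundant genes were Glul, Clu and Dkk3. Glul, the glutamine synthetase gene, was at 623 to 943 CPM in Yap CKO, 806 to 1100.0 CPM in control and 3931 to 4182 CPM in C57 libraries. Vim, the vimentin gene, named after its values had been seen, averaged 1314 CPM in Yap CKO, 1384 CPM in control and 154 CPM in C57 retinas and rose in control against C57 retinas (log2 3.14, adjusted p = 1.56e-05). The astrocyte list, which includes Gfap, summed to 674 to 783 CPM in Yap CKO, 355 to 498 CPM in control and 91.1 to 149 CPM in C57 libraries. The microglia list summed to 92.0 to 129 CPM in Yap CKO, 99.7 to 111 CPM in control and 105 to 118 CPM in C57 libraries, and 3 of its 10 genes stayed under 1 CPM in every control library. Retinal ganglion cell sums were 2531 to 2754 CPM in Yap CKO, 2221 to 2487 CPM in control and 1870.5 to 1988 CPM in C57 libraries. Pigment and ciliary epithelium sums were 72.3 to 174 CPM in Yap CKO, 117 to 138 CPM in control and 205 to 223 CPM in C57 libraries. Vascular sums were 571 to 882 CPM in Yap CKO, 616 to 636 CPM in control and 599.9 to 676 CPM in C57 libraries, highest in Yap CKO 3. The part of cell composition in the levels of the feedback regulators was not tested.

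Between Yap CKO and control retinas, 0 of 10 rod markers, 0 of 10 Müller glia markers, 0 of 10 microglia markers and 0 of 10 vascular markers passed, where 0.200% of all genes did. The SE of the rod markers ran from 0.69 (Nr2e3) to 1.34 (Gnat1) on the log2 scale. These counts thus do not show that the 2 groups had equal cell content. The 7 tested lens markers all had positive values without passing. The astrocyte and retinal ganglion cell sums lay higher in every Yap CKO than in every control library, with 0 of 5 and 0 of 8 genes passing, and Gfap, an intermediate filament gene also known from reactive Müller cells, was at 666, 683 and 559 CPM in Yap CKO and 359.6, 239 and 314 CPM in control libraries (log2 1.07, adjusted p = 0.0533). Gfap made up most of the astrocyte sum, and Aldh1l1 of the same list lay lower in every Yap CKO than in every control library (56.7 ± 15.2 CPM in Yap CKO and 94.8 ± 19.1 CPM in control, log2 -0.74, adjusted p = 0.189). Pdgfra was at log2 -0.09. Their part in the values of the 10 genes was not tested. Age, floxed alleles, the letters MNU, source records and depth all differ between the day 60 groups and C57, and the labels give 4-hydroxytamoxifen for the day 60 groups without naming a treatment for the C57 samples. Sex differs as well, since C57 1 and the unnumbered C57 library had high Xist (135 and 181 CPM) and C57 2 a Y-linked sum of 158 CPM. These parts cannot be told apart in the comparisons with C57.

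**Figure D4:**
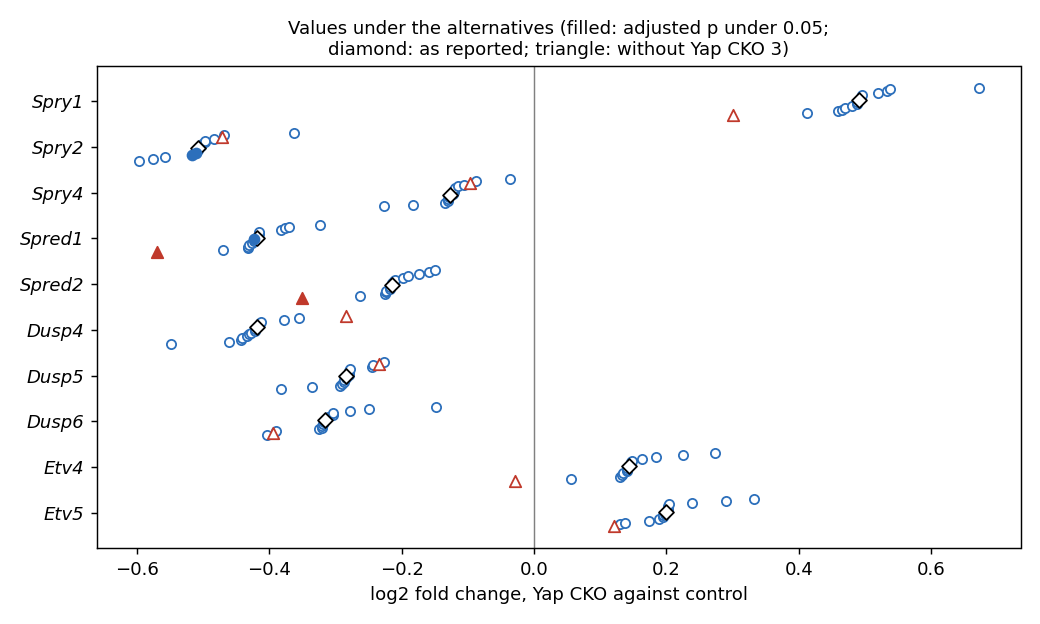
Log2 fold change of each gene in Yap CKO against control (horizontal axis) as reported (diamond), without Yap CKO 3 (triangle) and under the other alternatives (circles, spread vertically for legibility); filled symbols have an adjusted p under 0.05. Spry2, Spred1 and Spred2 are the genes with a filled symbol, and Etv4 is the one that crosses 0.

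Over 15 alternatives, the Yap CKO against control value of Spry2 ranged from -0.60 to -0.36 with an adjusted p under 0.05 in 2 of them, and that of Spred1 from -0.57 to -0.32, also in 2. Spry1 ranged from 0.30 to 0.67 and Dusp4 from -0.55 to -0.28, each with 0. In control against C57, Spry2, Spry4, Spred1, Dusp5, Dusp6 and Etv5 passed in all 15 alternatives. Spred2 passed in 12 of the 15 and Dusp4 in 10. Among values against C57, leaving out a library moved Spred1 in Yap CKO to 0.25 (without C57 1) and 0.26 (without Yap CKO 3), Spred2 in Yap CKO to 0.093 (without Yap CKO 3) and Etv4 in control to -0.062 (without C57 1).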

How the data were processed

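The authors deposited a table of read counts per gene for 9 libraries, made with HISAT2 2.1.0, featureCounts and edgeR on GRCm38, per the submitters' processing notes. They also deposited log2 fold changes with p-values for 305 genes, per the file headers; its 9 columns of per-library values were not used. Gene counts were tested with edgeR 4.0.16 (R 4.3.3): filterByExpr (minimum count 10, minimum total 15), TMM scaling and the quasi-likelihood F-test, with Benjamini-Hochberg adjustment over all genes tested and a threshold of 0.05. Each comparison was fitted on its 6 libraries alone. The SE is the absolute log2 fold change divided by the square root of F. Printed CPM are TMM-scaled over all 9 libraries. DESeq2 1.42.0, limma 3.58.1 (voom), other scalings and filters, a replicate block and leaving out each library were alternatives. The procedure was tested on simulated data in which 200 genes were changed in each comparison. In Yap CKO against control it recovered 13 of 67 genes changed 1.5-fold, 50 of 67 changed 2-fold and 60 of 66 changed 4-fold, with 12 false calls. In control against C57 and Yap CKO against C57 it recovered 6 and 3 of 67 genes changed 1.5-fold, with 11 and 16 false calls. In the real libraries 45.5% and 40.5% of all genes passed in these comparisons, far more than were changed in the simulation. Spred2 passed at 1.36-fold in control against C57. The simulated shares therefore do not give the recovery in the comparisons with C57. Among the 10 genes the largest difference between Yap CKO and control was 1.42-fold, a size that was rarely recovered. Total counts were 13760765 to 37629264 per library, and among the 10 genes the SE was largest for Etv4. No pair of libraries of a group agreed within sampling noise.

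The 10 genes and all lists were chosen with earlier results of these data known. Named besides them were Yap1, up to 4 genes per pathway list with the smallest p in Yap CKO against control and in control against C57, the 3 most abundant genes of a cell type list, and for each of the 10 the gene of at least 5 CPM with the highest Pearson r over the day 60 libraries. Some genes that this rule or the lists would name are not reported here. Exon lengths and gene positions are from GENCODE M21 (GRCm38) and promoters from RefSeq (GRCm38.p6).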

Additional observations from a re-analysis of the deposited data

How the results depend on the processing

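In Yap CKO against control, the 33 genes called became 15 with RLE scaling, 17 with upper-quartile scaling, 343 with no count filter, 15 with a filter of 1 CPM, 919 with DESeq2, 15 with limma-voom and 60 with all 9 libraries in one fit. Leaving out 1 library gave 0 to 1473 genes (edgeR; 0 without control 1 or control 2, 3 without Yap CKO 1, 1 without Yap CKO 2, 53 without control 3 and 1473 without Yap CKO 3). Of the 10 feedback regulators 1 passed with no count filter (Spry2, adjusted p = 0.0374), 2 with DESeq2 and 0 to 2 with a library left out. The 2 calls in the pathway lists became 1 with RLE, upper-quartile or total scaling, the 1 CPM filter or limma-voom, 5 with no filter, 12 with DESeq2 and 0 to 15 with a library left out. In Yap CKO against C57, 3905 to 8013 genes passed with a library left out, against 6419 with all (3986 without C57 2 and 3905 without Yap CKO 2). The direction of Etv4 turned to -0.029 without Yap CKO 3 in Yap CKO against control, to 0.069 with library totals in control against C57, and to 0.21 with library totals and 0.066 without C57 1 in Yap CKO against C57; leaving out a library gave -0.029 to 0.27 and -0.31 to 0.066 in the comparisons of Yap CKO with control and C57. The cause was not tested.

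Deviations of same-numbered Yap CKO and control libraries correlated at 0.40, -0.03 and 0.04. In each group 1 of 3 correlated best with its own number. Yap CKO 1 and control 1 also had the highest rod sums of their groups (22695 and 21542 CPM). With 3 libraries in a group, these values neither show nor exclude a pairing by number. With the replicate block, 45 genes and 0 feedback regulators passed in Yap CKO against control; over the 4 numbered libraries, 5850 genes and 7 regulators passed in control against C57 and 5642 and 6 in Yap CKO against C57. Etv4 had the lowest counts of the feedback regulators in every library, and the part of depth in its values was not tested.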
